A study of Mus musculus with 4 samples.

Results

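The 39 genes described here encode parts of the autophagy pathway (23 genes) and of the lysosome (16 genes). They were picked by gene symbol from a list of pathway members, a rule that itself uses no measured value, and all 39 are among the 54838 genes listed for each sample. RNA was sequenced from Hepa1-6, a mouse hepatocellular carcinoma cell line whose tissue label is liver. The NC group (2 samples) is labelled wild type for Acvr2a, and the KO group (2 samples) is labelled Acvr2a knockout. Acvr2a encodes an activin type II receptor. No treatment, time point or further allele is given for either group. The design text speaks of KO subclones, and no label says how many subclones the KO samples came from or whether the samples of a group were separate cultures. The p-values therefore measure the spread between these samples, which may be technical, and what knockout does cannot be told apart from what sets a subclone apart.

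Autophagy delivers cytoplasmic material to the lysosome for breakdown. A kinase complex around ULK1 starts the process, a lipid kinase complex containing Beclin 1 marks the membrane with phosphatidylinositol 3-phosphate (PI3P), and a ubiquitin-like conjugation system attaches Atg8 proteins (the LC3 and GABARAP families) to the growing autophagosome, where cargo receptors bind them. The lysosome supplies the acid hydrolases, and transcription factors of the MiT/TFE family (TFEB, TFE3 and MITF) drive many lysosomal and autophagy genes through E-box motifs. In liver, autophagy is known for turnover of glycogen, lipid droplets and mitochondria. RNA levels do not measure autophagic flux.

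Each library held 11597923 to 13910582 estimated counts, and the Pearson correlation of log2 CPM (counts scaled to the library size) between the samples of a group was 0.985 in NC and 0.986 in KO. The targeted gene did not distinguish the groups: Acvr2a was estimated at 80.99 (NC 1), 108.43 (NC 2), 74.69 (KO 1) and 97.4 (KO 2) counts, a log2 fold change of -0.21 (95% interval -0.63 to 0.21, adjusted p = 0.433). NC and KO are thus used as the labels give them. Of 10 hepatocyte markers 9 could be tested. Alb and Trf were abundant, at 473 to 713 and 350.3 to 586 TPM. Apoa1 and Apoa2 were low, at 17 to 39 and 15 to 19 counts, and Ttr was at 0 or 1 count in every sample. Of 8 fibroblast markers 3 could be tested, and Col1a1 (6, 5, 38 and 41 counts in the same order) and Pdgfra rose, with log2 fold changes of 2.73 (adjusted p = 3.05e-05) and 0.97 (adjusted p = 5.42e-06). Col3a1 and Lum were at 0, and Col1a2, Pdgfrb and Acta2 had at most 2 counts in every sample. The summed list was at 1034 and 1097 TPM in NC and 1236 and 1239.8 TPM in KO. Nearly all of that sum was Dcn, at 1032 to 1234 TPM with no call. All 6 endothelial markers had at most 15 counts in every sample.

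Both pathways contained genes that rose and genes that fell in KO, by less than 2-fold in every case. Among the autophagy genes 22 of 23 had enough counts to be tested, and 9 (40.9%) passed an adjusted p of 0.05, with 6 higher and 3 lower. Among the lysosome genes all 16 were tested and 9 (56.2%) passed, again with 6 higher and 3 lower. These shares are to be read against all 12510 genes tested, of which 37.9% passed, 19.7% higher and 18.2% lower. In this fit the share of autophagy genes was near that background. That of lysosome genes lay above it, a difference that was not tested and that rested on NC 2: without that sample 5 of 16 lysosome genes passed, beside 29.9% of all genes. With DESeq2, 8 autophagy genes passed, beside 22.7% of all genes, and with limma on log2(TPM + 1) 6 passed, beside 17.3%. In these 2 fits the autophagy share also lay above that of all genes, a difference that was not tested. The median log2 fold change was 0.073 for the autophagy genes and 0.12 for the lysosome genes, against -0.0037 over all genes tested. The autophagy median was 0.035 without NC 1 and 0.028 with estimated transcript lengths taken into account. The lysosome median was 0.18 on the log2(TPM + 1) scale, where that of all genes was 0.060. The adjustment of p-values (Benjamini-Hochberg) covered those 12510 genes, the test was edgeR's quasi-likelihood test on the counts, 2-sided, and a log2 fold change is KO over NC.

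The median absolute log2 fold change was 0.279 for the lysosome genes and 0.189 for the autophagy genes, against 0.278 over all genes tested. The autophagy genes ran from -0.50 (Gabarapl2) to 0.72 (Wipi1), and the lysosome genes from -0.44 (Hexa) to 0.76 (Glb1). CPM, scaled by TMM factors, of the NC and KO samples did not overlap for 19 of 22 autophagy genes and 15 of 16 lysosome genes, beside 69.4% of all genes tested. All 18 genes that passed were apart in CPM and also in TPM, the authors' level per transcript length. The calls and both measures come from the same reads, so this describes the called genes and is no separate support for the calls. Together the 39 genes took 0.732% and 0.733% of the counts in NC and 0.782% and 0.781% in KO. Bulk RNA carries a limit here, since a lower level in every cell and a smaller share of cells with the transcript cannot be told apart.

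**Figure D1:**
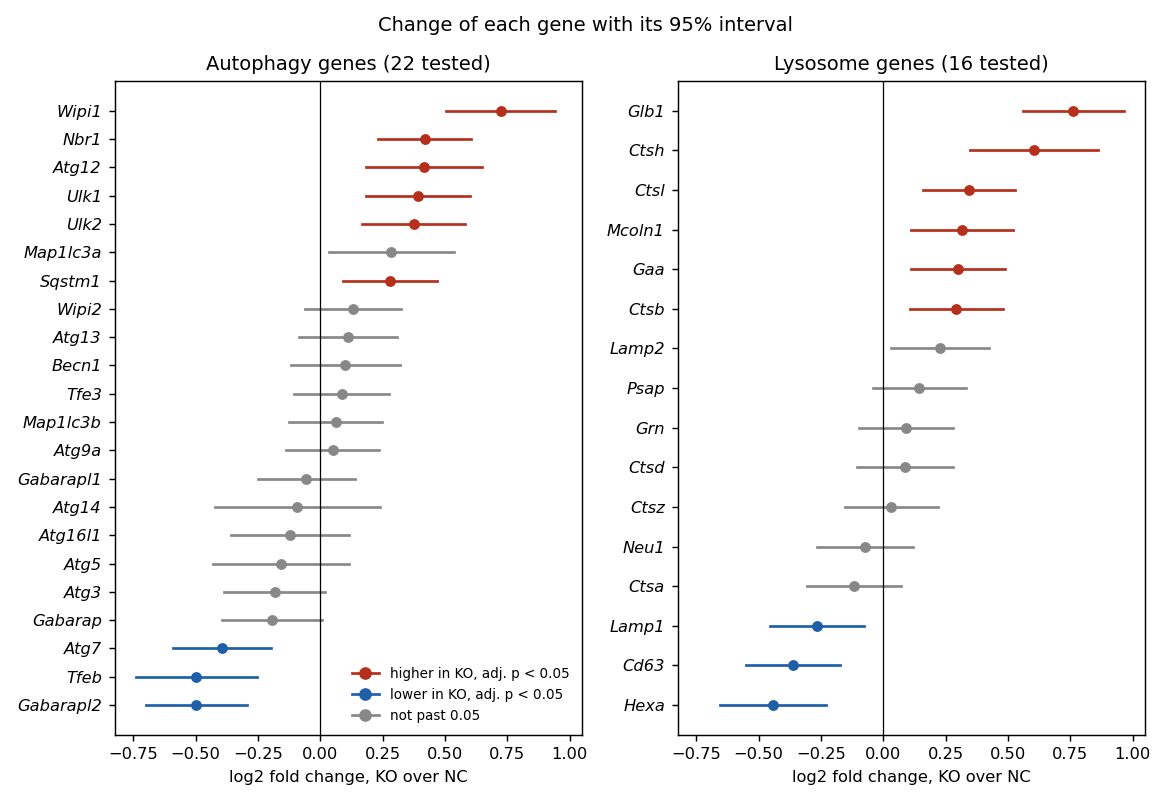
Log2 fold change, KO over NC, of the 38 genes tested, in an autophagy and a lysosome panel; points are edgeR estimates, bars are 95% intervals, and red (higher) and blue (lower) mark an adjusted p under 0.05. The estimates run from -0.50 to 0.76, with 12 red and 6 blue points.

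Of the 18 calls, 10 were kept under all 11 alternatives run on counts: Gabarapl2, Nbr1, Ulk2, Atg7, Wipi1, Tfeb, Ctsh, Glb1, Hexa and Cd63. A fit that also took the estimated transcript lengths into account ended the calls of Sqstm1, Atg12, Ctsb, Gaa and Mcoln1. With limma on log2(TPM + 1), these 5 calls and those of Atg7, Lamp1 and Hexa were lost. Without a filter on low values that fit called no gene at all, with 4506 of 20640 genes under an unadjusted p of 0.05. Calls that rested on 1 library are named beside the gene.

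The share of all genes called moved as well, and counts of calls under an alternative are to be read against it. It was 22.7% with DESeq2, 23.1% with effective-length offsets (12.5% higher, 10.6% lower), 17.3% with limma on log2(TPM + 1) (11.7% higher, 5.52% lower), 16.8% on log2(TPM + 0.1) (11.4% higher, 5.37% lower) and 0.00% on TPM without the filter. It was 27.2% without NC 1 (14.3% higher, 12.8% lower) and 29.9% without NC 2 (15.9% higher, 14.0% lower). Without KO 1 it was 35.0% (18.0% higher, 17.0% lower), and without KO 2 it was 27.9% (14.3% higher, 13.6% lower).

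Levels of the autophagy genes spanned a wide range, and their order was nearly the same in both groups. Values below are given in the order NC 1, NC 2, KO 1, KO 2, and ± is the SD (n = 2). Gene positions are those of GENCODE M21 on GRCm38. Gabarap, which encodes an Atg8 protein, was the most abundant at 540 ± 15.8 TPM in NC and 477 ± 66.5 TPM in KO. The cargo receptor gene Sqstm1 came next at 269 ± 17.2 TPM in NC and 327 ± 0.0566 TPM in KO. Map1lc3b and Gabarapl1 followed at 94.2 ± 6.69 and 81.1 ± 0.474 TPM in NC, above Tfe3 and Wipi2 at 59.5 ± 7.16 and 57.8 ± 1.67 TPM, a neighbouring pair that did not differ beyond its spread. At the low end stood Atg14 at 3.88 ± 0.127 TPM in NC. Mitf, the MiT/TFE factor best known from melanocytes, had 2, 4, 6 and 11 counts and was not tested.

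**Figure D2:**
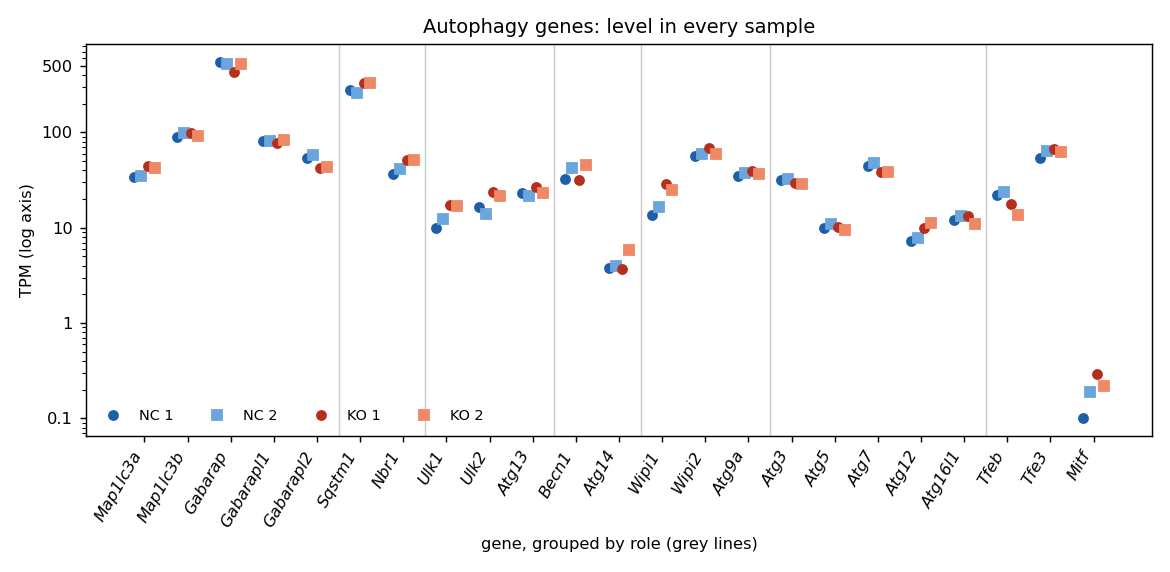
TPM (log axis) of the 23 autophagy genes in each of the 4 samples, grouped by role, with 1 point per sample. Gabarap and Sqstm1 are the highest and Mitf the lowest in every sample. The NC and KO points lie apart for 14 of the 22 genes tested, among them Wipi1, Ulk1, Ulk2, Nbr1, Gabarapl2 and Tfeb. The share of all genes apart in TPM was not computed, and in CPM it was 69.4% of all genes tested.

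Genes for initiation of autophagy were higher in KO for both ULK kinases. Ulk1 (chr5:110784488-110810097, minus strand), which encodes the kinase that starts autophagosome formation, was at 40.1, 44, 53.2 and 57.2 CPM and at 10.1, 12.3, 17.3 and 16.9 TPM. Both KO values lay above both NC values, and Ulk1 rose 1.31-fold (log2 fold change 0.39, SE 0.10, adjusted p = 0.00335). Its relative Ulk2 (chr11:61775649-61855073, minus strand) was at 39.7, 40.3, 53.2 and 50.5 CPM and at 16.5, 14, 23.6 and 21.3 TPM. The groups were again apart, and Ulk2 rose 1.3-fold (log2 fold change 0.37, SE 0.10, adjusted p = 0.00449). Atg13, the scaffold that holds the kinase complex together, was at 61.8, 58.7, 65 and 64.9 CPM with a log2 fold change of 0.11 (95% interval -0.087 to 0.31, adjusted p = 0.391). The Ulk1 call was lost when NC 1 was left out (0.32, adjusted p = 0.0592); on the log2(TPM + 0.1) scale the log2 fold changes of Ulk1 and Ulk2 were larger, at 0.62 and 0.56.

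The lipid kinase genes showed no call. Becn1, the Beclin 1 gene, was at 40.2, 36.5, 40.1 and 42.1 CPM and at 32.8, 42.7, 31.8 and 45.3 TPM. Its samples overlapped in both measures, and its log2 fold change was 0.10 (95% interval -0.12 to 0.32, adjusted p = 0.486). Atg14, which directs the kinase to autophagosome formation sites, was at 11.4, 11.4, 10.3 and 11.1 CPM with a log2 fold change of -0.092 (95% interval -0.42 to 0.24, adjusted p = 0.69). Both signs depended on how transcript length was treated: with effective lengths taken into account, Becn1 was at -0.037 and Atg14 at 0.21.

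Wipi1 had the largest change among the autophagy genes. It encodes a WD-repeat protein that reads PI3P on the forming autophagosome, and lies at chr11:109573331-109611967, minus strand. Wipi1 was at 30.8, 35.9, 55.9 and 54.5 CPM and at 13.7, 16.7, 28.7 and 24.6 TPM. The KO samples were close to each other in CPM and well above both NC samples. Wipi1 rose 1.65-fold (log2 fold change 0.72, SE 0.11, adjusted p = 6.03e-06). Its relative Wipi2, which recruits the conjugation machinery, was more abundant at 146, 149.6, 172 and 151 CPM, and only KO 1 stood well above the NC samples. The log2 fold change of Wipi2 was 0.13 (95% interval -0.062 to 0.32, adjusted p = 0.289). Atg9a, the lipid scramblase on the vesicles that seed the autophagosome, was at 115, 114, 119 and 118 CPM, with a log2 fold change of 0.050 (95% interval -0.14 to 0.24, adjusted p = 0.7).

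The conjugation genes moved in both directions. Atg7 (chr6:114643097-114860614, plus strand), the E1-like enzyme that activates both Atg8 proteins and Atg12, was at 77.5, 78.8, 61.6 and 57.4 CPM and at 44.7, 48, 38.7 and 38.1 TPM. Both KO values lay below both NC values, and Atg7 fell (log2 fold change -0.39, SE 0.096, adjusted p = 0.00185). Atg12, the ubiquitin-like protein joined to Atg5, was at 30.5, 31.1, 37.7 and 44.4 CPM and at 7.34, 7.83, 9.95 and 11.3 TPM. KO 2 was the highest sample and KO 1 also lay above NC; Atg12 rose 1.33-fold (log2 fold change 0.42, SE 0.11, adjusted p = 0.00456).

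The other conjugation genes passed no threshold. Atg3, the E2-like enzyme for Atg8 proteins, had a log2 fold change of -0.18 (95% interval -0.39 to 0.020, adjusted p = 0.149). Atg5 was at -0.16 (95% interval -0.43 to 0.12, adjusted p = 0.375). Atg16l1, which places the Atg12-Atg5 conjugate on the membrane, was at -0.12 (95% interval -0.36 to 0.12, adjusted p = 0.435) with overlapping groups. The Atg12 call was lost with DESeq2 (adjusted p = 0.0523) and when KO 2 was left out (0.29, adjusted p = 0.0948), and that of Atg7 was lost on the log2(TPM + 1) scale (-0.26, adjusted p = 0.137).

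Of the 5 Atg8 genes, Gabarapl2 was the one that passed the test, and it fell. Gabarapl2 (chr8:111940703-111953612, plus strand), also known as GATE-16, was at 61.7, 63, 43.3 and 45.2 CPM and at 54.1, 57.9, 41.9 and 43.5 TPM. The 2 KO samples were close to each other and below both NC samples. Gabarapl2 fell to 0.709 of its NC level (log2 fold change -0.50, SE 0.099, adjusted p = 0.000248). Map1lc3b, the LC3B gene, was at 149, 158, 159 and 161 CPM, with a log2 fold change of 0.061 (95% interval -0.13 to 0.25, adjusted p = 0.63). Map1lc3a was at 22.7, 23, 28.2 and 27.5 CPM, both KO samples above both NC samples, with a log2 fold change of 0.28 (95% interval 0.034 to 0.53, adjusted p = 0.0669). Scaling by library size alone put Map1lc3a at 0.32 with an adjusted p of 0.0437.

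Gabarap and Gabarapl1 depended on single KO samples. Gabarap was at 368, 345, 282 and 341 CPM, where KO 1 was the lowest sample and KO 2 lay just under NC 2. Its log2 fold change was -0.19 (95% interval -0.39 to 0.0059, adjusted p = 0.119), which became -0.34 (adjusted p = 0.00843) without KO 2 and -0.063 (adjusted p = 0.688) without KO 1. Gabarapl1 overlapped between the groups at 121, 114, 106 and 119 CPM, with a log2 fold change of -0.055 (95% interval -0.25 to 0.14, adjusted p = 0.68) that turned to 0.026 without KO 1. Summed over the 5 genes, Atg8 transcripts were at 810.2 and 802 TPM in NC and 693 and 785 TPM in KO, and Gabarap made up 68.0%, 66.0%, 62.1% and 66.8% of that sum.

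Both cargo receptor genes rose. Nbr1 (chr11:101552149-101581951, plus strand), which encodes a receptor for ubiquitinated cargo and peroxisomes, was at 122, 129.6, 166 and 171 CPM and at 36.9, 41.1, 51.6 and 51.6 TPM. The groups were apart by several times the gap between samples of a group, and Nbr1 rose 1.34-fold (log2 fold change 0.42, SE 0.091, adjusted p = 0.000684). Sqstm1 (chr11:50199366-50210827, minus strand), the gene of p62, was at 429.9, 401, 502 and 506 CPM and at 281, 256, 327 and 327 TPM. The KO samples were nearly equal and above both NC samples, and Sqstm1 rose 1.21-fold (log2 fold change 0.28, SE 0.092, adjusted p = 0.0173). The Sqstm1 call was lost without NC 2 (0.23, adjusted p = 0.154) and with effective-length offsets (0.21, adjusted p = 0.153).

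Of the MiT/TFE genes, Tfeb fell and Tfe3 passed no threshold. Tfeb (chr17:47737030-47792419, plus strand), a main transcriptional activator of lysosomal genes that is controlled largely through its location in the cell, was at 37.5, 36.2, 28.6 and 23.6 CPM and at 22.2, 24, 17.8 and 13.7 TPM. KO 2 was the lowest sample, and both KO samples lay below NC. Tfeb fell to 0.709 of its NC level (log2 fold change -0.50, SE 0.12, adjusted p = 0.00157). Tfe3 was the more abundant of the pair, at 127, 138, 142 and 139.6 CPM and at 54.4, 64.5, 66.6 and 62.6 TPM. Its log2 fold change was 0.085 (95% interval -0.10 to 0.27, adjusted p = 0.495), and in TPM its groups overlapped.

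The motif through which MiT/TFE factors are known to act was looked up in the start-site windows of the genes, since Tfeb fell while several lysosome genes rose. Windows from RefSeq (GRCm38.p6) reached from 250 bases before to 50 after the start and covered 33 of the 39 genes. The E-box core CACGTG reads the same on both strands, and the longer TCACGTGA and GTCACGTGAC each contain it. CACGTG was found in 7 of 14 lysosome genes with a window (50%) and in 4 of 19 autophagy genes (21.1%), against 8.09% of all 27025 genes with a window and 7.15% of all 32851 windows. TCACGTGA was found in 3 of 14 lysosome genes (Ctsa, Ctsd and Mcoln1) and 1 of 19 autophagy genes (Atg3), against 1.12% of all genes with a window and 0.974% of all windows. GTCACGTGAC, found in 0.326% of all windows, was in none of them. The share with CACGTG was also above 8.09% in the wider lists described below. It ran from 12.5% of the other autophagy genes to 36.4% of the vacuolar ATPase subunits with a window. The 27025 genes include genes not tested here, and no such share was computed over the genes tested. A match describes the letters only. The stretches around the cores are shown for the 7 lysosome genes and Atg3 so that the number and spacing of cores can be read beside the expression values, 5′ to 3′ on the gene's strand, with each CACGTG in capitals.
Lamp1, chr8:13159070-13159172, plus strand: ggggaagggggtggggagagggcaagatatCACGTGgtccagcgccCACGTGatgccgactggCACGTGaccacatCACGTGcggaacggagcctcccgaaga
Mcoln1, chr8:3500418-3500509, plus strand: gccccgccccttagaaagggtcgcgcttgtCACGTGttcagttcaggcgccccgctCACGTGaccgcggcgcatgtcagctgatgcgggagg
Ctsd, chr7:142387890-142388077, minus strand: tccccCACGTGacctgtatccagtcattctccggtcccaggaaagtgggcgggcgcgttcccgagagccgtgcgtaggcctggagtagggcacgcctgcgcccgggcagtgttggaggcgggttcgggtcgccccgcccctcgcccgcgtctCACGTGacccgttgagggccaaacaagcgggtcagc
Ctsa, chr2:164833731-164833784, plus strand: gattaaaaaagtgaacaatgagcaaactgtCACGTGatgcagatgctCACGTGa
Glb1, chr9:114401000-114401065, plus strand: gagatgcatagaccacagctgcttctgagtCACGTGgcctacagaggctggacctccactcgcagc
Gaa, chr11:119267793-119267858, plus strand: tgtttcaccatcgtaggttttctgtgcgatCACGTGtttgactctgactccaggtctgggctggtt
Ctsl, chr13:64370721-64370770, minus strand: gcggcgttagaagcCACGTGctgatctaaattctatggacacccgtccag
Atg3, chr16:45158705-45158793, plus strand: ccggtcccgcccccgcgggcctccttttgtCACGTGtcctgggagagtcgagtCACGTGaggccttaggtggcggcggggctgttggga

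Lamp1 holds 4 cores within its window, the most of any gene here, at 61, 45, 28 and 15 bases before its start. Mcoln1, Ctsd, Ctsa and Atg3 hold 2 each, and Ctsa is shown for 1 of its RefSeq start sites. Glb1, Gaa and Ctsl hold 1 each. Among the lysosome genes with a core, 4 rose (Ctsl, Gaa, Glb1 and Mcoln1), 1 fell (Lamp1) and 2 had no call, with a median log2 fold change of 0.30. Among the 7 with a window but no core none rose, 2 fell (Hexa and Cd63) and 5 had no call, with a median of 0.031. Ctsb and Ctsh, which both rose, have no window and are in neither count. Among the autophagy genes with a core none of 4 rose and 1 fell (Atg7), and with a window but no core 5 of 15 rose and 2 fell. Of those without a window, Atg12 rose, and Map1lc3a, Atg16l1 and Becn1 had no call. Over all genes tested, 19.7% were called higher and 18.2% lower. The link between motif and direction was not tested.

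Lysosomal membrane genes were split, with the 2 most abundant in NC, Cd63 and Lamp1, lower in KO. Cd63 (chr10:128900989-128912822, plus strand), a tetraspanin of late endosomes and lysosomes, was at 426, 389, 310.4 and 323 CPM and at 645, 553, 440 and 466 TPM. Both KO samples lay below both NC samples, and Cd63 fell to 0.777 of its NC level (log2 fold change -0.36, SE 0.092, adjusted p = 0.00265). Lamp1 (chr8:13159161-13175338, plus strand), a heavily glycosylated protein of the lysosomal membrane, was at 615, 635, 521 and 519 CPM and at 329.7, 358, 305 and 291 TPM. Its groups were apart by far more than the gap between samples in CPM, and Lamp1 fell to 0.832 of its NC level (log2 fold change -0.26, SE 0.092, adjusted p = 0.0235).

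Mcoln1, by contrast, rose. Mcoln1 (chr8:3500457-3515232, plus strand) encodes the lysosomal calcium channel TRPML1, and was at 58.2, 58.5, 78.2 and 66.9 CPM and at 48.2, 54.3, 63.9 and 70.05 TPM. KO 1 was the highest sample in CPM and KO 2 in TPM, and both lay above NC. Mcoln1 rose 1.24-fold (log2 fold change 0.31, SE 0.10, adjusted p = 0.0144). Lamp2, needed for autophagosome fusion and chaperone-mediated autophagy, was at 270.3, 276, 291 and 348 CPM with KO 2 the highest sample, and its log2 fold change was 0.23 (95% interval 0.032 to 0.42, adjusted p = 0.0611). Leaving out KO 1 put Lamp2 past the threshold (0.35, adjusted p = 0.00401), and leaving out KO 2 took it to 0.092 (adjusted p = 0.562). The Lamp1 call was lost with scaling by library size alone (adjusted p = 0.0609), without NC 1, NC 2 or KO 2 (adjusted p = 0.0554, 0.127 and 0.0503) and on the TPM scales. Mcoln1 lost its call without NC 1, NC 2 or KO 1 (adjusted p = 0.0688, 0.0531 and 0.19) and with DESeq2 (adjusted p = 0.0787); without KO 1 its log2 fold change was 0.20.

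Of the 6 cathepsin genes, 3 rose and none fell, beside 19.7% of all genes tested called higher and 18.2% lower. Ctsh (chr9:90054152-90076089, plus strand), an aminopeptidase and the least abundant of them in both groups, was at 19.3, 19, 28.4 and 29.8 CPM and at 20.3, 16.6, 27.3 and 41.3 TPM. Its KO samples were apart from NC in both measures, and Ctsh rose 1.52-fold (log2 fold change 0.60, SE 0.13, adjusted p = 0.000408). Ctsl (chr13:64359337-64370890, minus strand), a cysteine endopeptidase, was at 269, 255, 328 and 335 CPM and at 266, 262, 384 and 372 TPM. The samples of each group were close and the groups apart, and Ctsl rose 1.27-fold (log2 fold change 0.34, SE 0.09, adjusted p = 0.00362). Ctsb (chr14:63122462-63145923, plus strand), another cysteine protease, was at 303, 286, 352 and 369 CPM and at 117, 113, 145 and 133 TPM. KO lay above NC in every sample, and Ctsb rose 1.23-fold (log2 fold change 0.29, SE 0.091, adjusted p = 0.0121).

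The other 3 cathepsins passed no threshold. Ctsd, the main aspartic protease of the lysosome, was at 1032, 944, 1039 and 1059.9 CPM, with a log2 fold change of 0.087 (95% interval -0.11 to 0.28, adjusted p = 0.495). Ctsz, a carboxypeptidase, overlapped between the groups and had a log2 fold change of 0.031 (95% interval -0.16 to 0.22, adjusted p = 0.82), which turned to -0.0094 without NC 2. Ctsa, the protective protein that stabilises beta-galactosidase and neuraminidase, was at 584, 576, 551 and 518 CPM, with a log2 fold change of -0.12 (95% interval -0.31 to 0.070, adjusted p = 0.328). In TPM, Ctsd was close to Cd63 in NC (587 ± 16.6 against 599 ± 65.1, within the spread) and above it in KO (647 ± 5.29 against 453 ± 18.7). Summed over the 6 genes, cathepsin transcripts were at 1744 and 1718 TPM in NC and 1994 and 1932 TPM in KO. Without NC 2 the calls of Ctsl (0.30, adjusted p = 0.0513) and Ctsb (0.25, adjusted p = 0.116) were lost, as was that of Ctsb without KO 2 (adjusted p = 0.0501), and on the log2(TPM + 1) scale Ctsl was at 0.52.

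**Figure D3:**
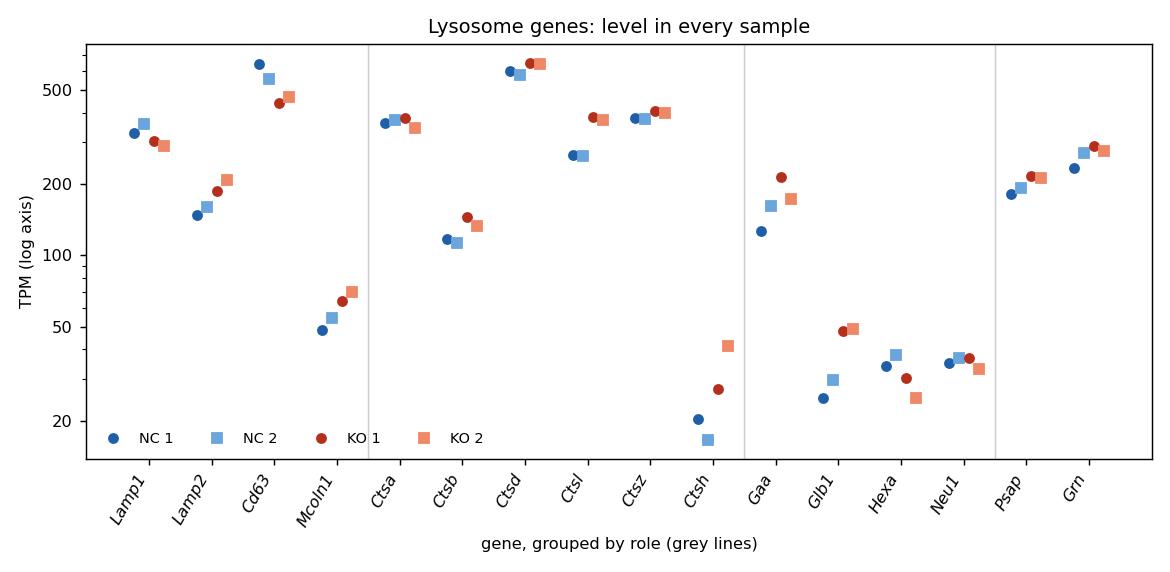
TPM (log axis) of the 16 lysosome genes in each of the 4 samples, grouped as membrane proteins, cathepsins, glycosidases and cofactor proteins, with 1 point per sample. The NC and KO points lie apart for 14 of the 16 genes. The share of all genes apart in TPM was not computed, and in CPM it was 69.4% of all genes tested. Among the called genes, KO points lie above NC points for Ctsb, Ctsl, Ctsh, Gaa, Glb1 and Mcoln1 and below them for Lamp1, Cd63 and Hexa.

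Glycosidase genes held the largest rise and the largest fall among the lysosome genes. Glb1 (chr9:114401076-114474898, plus strand), the lysosomal beta-galactosidase that removes galactose from GM1 ganglioside, was at 50.8, 57.8, 89.1 and 95.1 CPM and at 25, 29.8, 47.9 and 48.9 TPM. Both KO samples were far above both NC samples, and Glb1 rose 1.7-fold (log2 fold change 0.76, SE 0.098, adjusted p = 9.31e-07). Hexa (chr9:59539540-59565109, plus strand), the alpha subunit of beta-hexosaminidase that acts on GM2 ganglioside further down the same route, was at 56.1, 59.4, 45.6 and 39.5 CPM and at 34, 37.9, 30.1 and 25 TPM. KO 2 was the lowest sample, both KO samples lay below NC, and Hexa fell to 0.736 of its NC level (log2 fold change -0.44, SE 0.10, adjusted p = 0.00128). Gaa (chr11:119267887-119285454, plus strand), the acid alpha-glucosidase that breaks down glycogen in the lysosome, was at 299, 328, 389 and 382 CPM and at 127, 161, 213 and 174 TPM. KO lay above NC in every sample, and Gaa rose 1.23-fold (log2 fold change 0.30, SE 0.092, adjusted p = 0.0115).

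The remaining 3 lysosome genes passed no threshold. Neu1, the lysosomal sialidase, had a log2 fold change of -0.072 (95% interval -0.27 to 0.12, adjusted p = 0.575). Psap, the precursor of the saposins that present lipids to these enzymes, was at 405, 412, 446 and 456 CPM, with a log2 fold change of 0.14 (95% interval -0.041 to 0.33, adjusted p = 0.217). Grn, the gene of progranulin, was at 436, 467, 480.3 and 482 CPM and had a log2 fold change of 0.092 (95% interval -0.096 to 0.28, adjusted p = 0.458). The Gaa call was lost without NC 1 (0.23, adjusted p = 0.171), and that of Hexa on the log2(TPM + 1) scale (-0.37, adjusted p = 0.0952). Leaving out NC 2 reduced the lysosome calls from 9 to 5, beside 29.9% of all genes called.

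The transcript lengths behind the TPM values also differed for some of these genes. The length column holds the abundance-weighted mean transcript length, so it moves when the estimated mix of isoforms moves. It varied by more than 1.2-fold between the samples for 5 of the 38 genes tested. Ctsh was at 1246, 1525, 1448 and 1042 bases, and KO 2, with the shortest estimate, had the highest TPM although the KO samples were close in CPM. Becn1 was at 1543, 1195, 1701 and 1269 bases, which set replicates apart in both groups. Atg14 was at 3450, 3450, 3450 and 2364 bases, with KO 2 alone low. Ulk2 was at 2800, 3463, 2855 and 2869 bases, with NC 2 alone high, and Mcoln1 was at 1522, 1445, 1660 and 1301 bases. None of the 5 separated NC from KO. Some genes that varied less did. Ulk1 was shorter in KO, at 4480, 4247, 3795 and 4009 bases, as was Ctsl, at 1313, 1331, 1236 and 1242 bases. Nbr1 was longer in KO, at 3764, 3759, 3973 and 3912 bases.

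**Figure D4:**
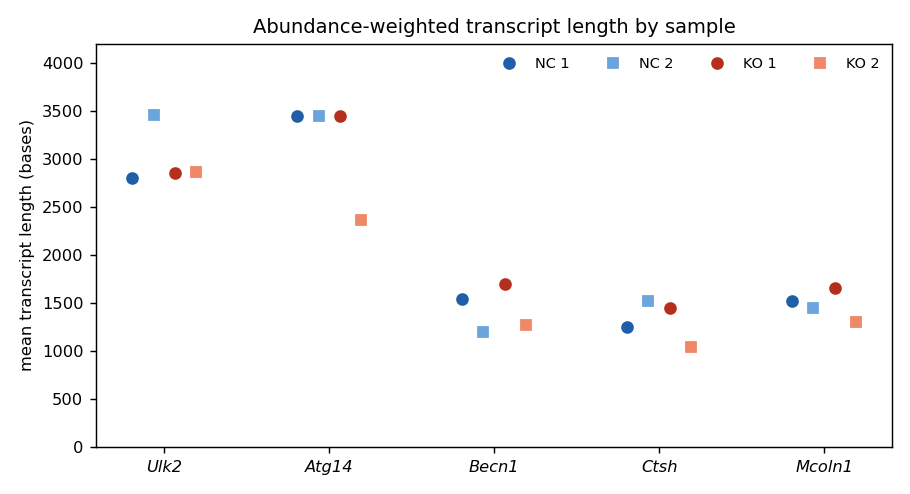
Abundance-weighted mean transcript length, in bases, in each of the 4 samples for Ulk2, Atg14, Becn1, Ctsh and Mcoln1, the genes tested whose highest value was more than 1.2 times the lowest. In each gene the NC and KO values overlap or tie, and KO 2 alone is low for Atg14.

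Some of these genes share annotated bases with others. Exons of 15 of the 39 genes overlap another gene in GENCODE M21, on the same strand in 4 cases, and whether counting used strand is not given in the sources used here. Glb1 overlaps Tmppe on its own strand, and Tmppe had a log2 fold change of -0.56 (adjusted p = 0.109), opposite in sign to Glb1. Ctsb overlaps Fdft1 on the other strand, and Fdft1 fell (-0.39, adjusted p = 0.00275) while Ctsb rose. Sqstm1 overlaps Mrnip on the other strand, which rose as well (0.65, adjusted p = 0.015). Lamp1, Ctsl and Hexa also overlap other genes, and whether reads of any of these pairs were split was not measured, so these values are uncertain.

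The wider pathways were described with lists that share no gene with the 39. Of 36 other autophagy genes tested, 9 rose and 2 fell, a share of 30.6% called against 37.9% of all genes. Atg9b, a relative of Atg9a, was at 7.65, 7.37, 21.1 and 25.8 CPM and rose 3.12-fold (log2 fold change 1.64, SE 0.16, adjusted p = 5.98e-09). The mitophagy receptor gene Bnip3 rose (log2 fold change 0.64, SE 0.096, adjusted p = 9.15e-06), as did Calcoco1, a receptor for turnover of the endoplasmic reticulum (log2 fold change 0.59, SE 0.098, adjusted p = 3e-05). Vmp1, a lipid scramblase needed for autophagosome formation, was at 163, 138, 92.2 and 113 CPM and fell (log2 fold change -0.55, SE 0.10, adjusted p = 0.000179).

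Of 28 other lysosomal enzymes tested, 13 rose and 2 fell, a share of 53.6% called against 37.9% of all genes, with a median log2 fold change of 0.28. Ctsf, a cysteine cathepsin, was at 2.55, 2.02, 8.5 and 8.96 CPM. Both KO samples were several times the NC samples, and Ctsf rose 3.84-fold (log2 fold change 1.94, SE 0.26, adjusted p = 6.44e-07). Gm2a, the activator protein that presents GM2 ganglioside to beta-hexosaminidase, was at 44.4, 48.3, 96.3 and 113 CPM and rose 2.25-fold (log2 fold change 1.17, SE 0.10, adjusted p = 1.06e-09). Naglu, which acts on heparan sulfate, rose 1.97-fold (log2 fold change 0.98, SE 0.15, adjusted p = 1.3e-05), and Lgmn, the asparaginyl endopeptidase that processes cathepsins, rose 1.81-fold (log2 fold change 0.86, SE 0.094, adjusted p = 6.71e-08).

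Genes that carry enzymes to the lysosome or sit in its membrane were split. Of 16 tested, 5 rose and 2 fell, a share of 43.8% called against 37.9% of all genes. M6pr, a mannose 6-phosphate receptor, was at 175, 176, 164 and 185 CPM with no call (log2 fold change -0.013, adjusted p = 0.933). Igf2r, a second mannose 6-phosphate receptor that sorts hydrolases, was much lower, at 6.95, 6.28, 16.2 and 15 CPM. Both KO samples were above both NC samples, and Igf2r rose 2.37-fold (log2 fold change 1.24, SE 0.17, adjusted p = 1.79e-06), a log2 fold change that was 0.74 on the log2(TPM + 1) scale. Sort1, another sorting receptor, rose (log2 fold change 0.51, SE 0.095, adjusted p = 0.000133), as did the cystine exporter Ctns (log2 fold change 0.49, SE 0.12, adjusted p = 0.00262). Cln3, a lysosomal membrane protein mutated in Batten disease, fell (log2 fold change -0.46, SE 0.099, adjusted p = 0.000528).

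Subunits of the vacuolar ATPase, the pump that acidifies the lysosome, changed in both directions. Of 16 tested, 2 rose and 5 fell (43.8% called against 37.9% of all genes), with a median log2 fold change of -0.11. The median was -0.059 without NC 1 and -0.042 on the log2(TPM + 1) scale. Atp6v1h, a regulatory subunit of the cytosolic sector, was at 59.5, 54.3, 42.7 and 39.3 CPM and fell (log2 fold change -0.47, SE 0.10, adjusted p = 0.000628). Atp6v0b of the membrane sector fell (log2 fold change -0.35, SE 0.096, adjusted p = 0.00522), and so did the accessory genes Atp6ap1 (log2 fold change -0.30, SE 0.094, adjusted p = 0.0118) and Atp6ap2 (log2 fold change -0.37, SE 0.12, adjusted p = 0.016). Without NC 1 the number called was 2 in place of 7, beside 27.2% of all genes. The calls of Atp6v0b, Atp6ap1 and Atp6ap2 were among those lost (adjusted p = 0.0774, 0.112 and 0.101). Without KO 1, Atp6ap1 and Atp6ap2 were lost as well (adjusted p = 0.0888 and 0.128). On the log2(TPM + 1) scale all 3 were lost, with Atp6ap1 at -0.12 (adjusted p = 0.421), and DESeq2 did not call Atp6ap2 (adjusted p = 0.103).

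Nutrient sensing genes of the lysosomal surface, which control mTORC1 and through it TFEB, had 3 higher and 7 lower among 22 tested. That is 45.5% called against 37.9% of all genes, of which 19.7% were higher and 18.2% lower. Flcn, the folliculin gene, was at 30.5, 30.8, 19.4 and 22.3 CPM and fell (log2 fold change -0.56, SE 0.12, adjusted p = 0.000825). Rheb, the small GTPase that activates mTORC1, fell (log2 fold change -0.45, SE 0.11, adjusted p = 0.00158), as did Akt1s1, the mTORC1 inhibitor PRAS40 (log2 fold change -0.65, SE 0.096, adjusted p = 6.58e-06). Slc38a9, the lysosomal arginine sensor, was at 4.22, 5.42, 9.26 and 9.62 CPM and rose 1.94-fold (log2 fold change 0.96, SE 0.21, adjusted p = 0.000548). The calls of Flcn, Rheb and Akt1s1 were lost on the log2(TPM + 1) scale (adjusted p = 0.0903, 0.0637 and 0.0724), where Akt1s1 was at -0.39, and that of Slc38a9 on the log2(TPM + 0.1) scale (adjusted p = 0.0505).

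**Figure D5:**
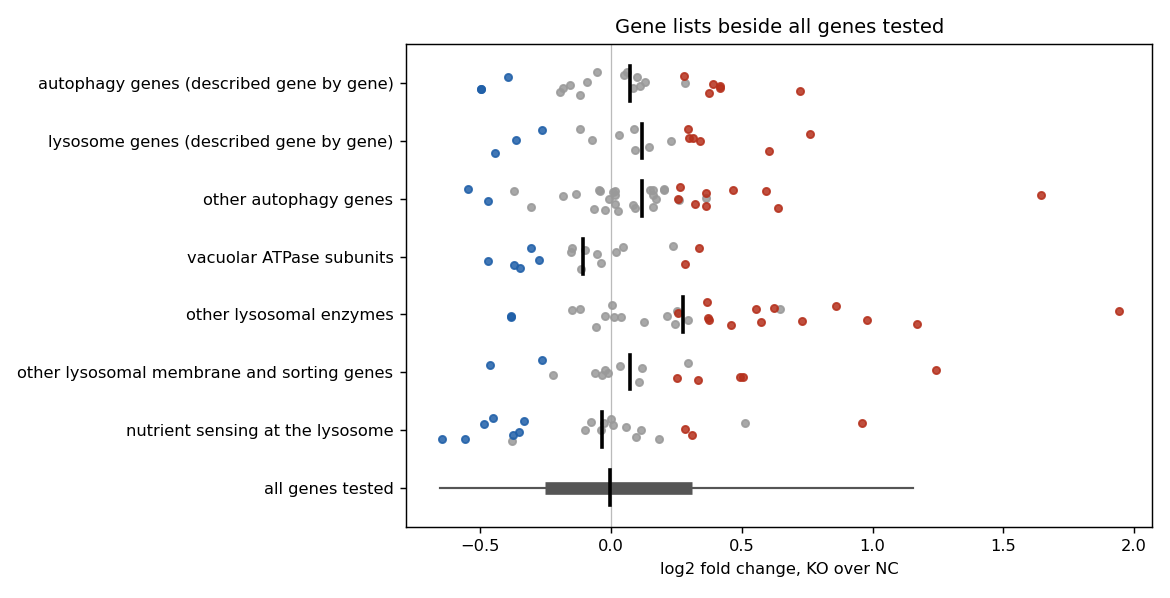
Log2 fold change, KO over NC, of every gene tested in the 2 gene sets described and in the 5 wider lists; each point is a gene, red (higher) or blue (lower) where it passed an adjusted p of 0.05, and the black bar is the median. The bottom row shows all genes tested, with a box from the 25th to the 75th percentile and a line from the 5th to the 95th. Medians run from -0.11 for the vacuolar ATPase to 0.28 for the other lysosomal enzymes.

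Macrophages are rich in lysosomes, so their markers were measured beside these lists. Of 10 leukocyte and macrophage markers, 7 had at most 15 counts in every sample, with Ptprc at 0 to 2 counts, Adgre1 at 0 or 1 and Cd3e at 0 throughout. Cd68, itself a lysosomal membrane protein, was at 24, 27.7, 55.5 and 67.6 TPM and rose (log2 fold change 1.203, SE 0.12, adjusted p = 1.34e-08), while Cd14 fell (log2 fold change -0.89, SE 0.15, adjusted p = 2.52e-05). The summed level of the list was 46.7 and 48.4 TPM in NC and 70.7 and 79.4 TPM in KO, nearly all of it from these 2 genes. Hepatocyte markers moved too, with 3 of 9 tested higher and 4 lower, beside 19.7% and 18.2% of all genes tested. Alb had a log2 fold change of 0.41 (adjusted p = 0.00224) and Hnf4a of -0.995 (adjusted p = 4.27e-09). Their part in the results was not tested.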

How the data were processed

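Total RNA of 4 Hepa1-6 samples (2 NC, 2 KO) was sequenced from directional libraries, per the labels' protocols. STAR, RSEM, FastQC and DESeq2, with GRCm38 (mm10), are named in the submitters' processing notes; versions and strand setting are not given in the sources used here. The deposited expected counts are estimated counts per gene, not normalized, per the file headers; RSEM shares reads among similar transcripts, and 9 of the 39 genes had values that were not whole. The deposited TPM values are the authors' length-scaled levels, and the deposited length columns are the authors' mean transcript lengths (another quantity than a level). The FPKM column was not used.

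Expected counts were rounded, which changed a library total by at most 0.000188%. filterByExpr left 12510 genes, and 8069 more had a count. The groups were compared with edgeR 4.0.16 (R 4.3.3): TMM scaling (factors 0.981 to 1.02), the quasi-likelihood test with group as the only term, and Benjamini-Hochberg adjustment over all genes tested. Precision rests on 2 samples a group, and the fit borrows information on spread between genes (25.8 prior degrees of freedom). The procedure was run on simulated counts with known changes, independent samples and the same spread for every gene. That checks the code and cannot show how well the p-values hold for these samples. Alternatives used DESeq2 1.42.0 and limma 3.58.1 on log2(TPM + 1) or log2(TPM + 0.1), other scalings and filters, a replicate block and leaving out each sample; the effective-length fit was added after seeing the data. All 39 genes matched GENCODE M21 (GRCm38) by versioned ID.

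Named genes are all 39, up to 4 genes of each wider list with the lowest p among those past 0.05, Acvr2a, and the markers given as sums or at 0. The few genes that overlap the 39 and those named for a motif match in the closing section were named after their values were seen. So were M6pr, Col1a1, Col1a2, Pdgfra, Pdgfrb, Acta2, Cd68, Cd14, Alb, Trf, Apoa1, Apoa2, Hnf4a, Dcn and Ttr. The 39 genes and all lists were chosen with earlier results of these data known.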

Additional observations from a re-analysis of the deposited data

How the results depend on the processing

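Counts of calls changed with the test, the scale and the samples used. Over all genes, 4741 calls became 2866 with DESeq2, 2893 with effective-length offsets, 2158 and 2099 with limma on log2(TPM + 1) and log2(TPM + 0.1), and 0 on log2(TPM + 1) without a filter; leaving out 1 sample gave 3507 to 4488. The TPM + 1 calls split into 1467 higher and 691 lower, against 2459 and 2282.

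Autophagy genes called numbered 0 on unfiltered TPM (0 higher, 0 lower) and 8 to 9 when 1 sample was left out (higher 5 to 6, lower 3 to 4). Lysosome genes called numbered 4, 4 and 0 on the 3 TPM scales (higher 3, 3 and 0; lower 1, 1 and 0) and 5 to 9 with 1 sample left out (higher 3 to 6, lower 2 to 3); length offsets left 3 higher. On the unfiltered TPM scale, 10 of 23 autophagy and 9 of 16 lysosome genes had an unadjusted p under 0.05 with limma, beside 4506 of all 20640 genes. Those 20640 genes include many with too few counts for the main test.

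For the other autophagy genes the count was 6 with DESeq2, 5, 5 and 0 on the TPM scales, 7 with length offsets and 8 to 10 with 1 sample left out. For the vacuolar ATPase it was 4 with DESeq2, 1, 1 and 0 on TPM, 3 with length offsets and 2 to 6 with 1 sample left out. Other lysosomal enzymes gave 8, 8 and 0 on TPM and 12 to 15. Membrane and sorting genes gave 4, 4 and 0 on TPM, 4 with length offsets and 5 to 7. Nutrient sensing genes gave 1, 0 and 0 on TPM, 6 with length offsets and 7 to 10.

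Log2 fold changes turned sign for Map1lc3b (-0.065) and Becn1 (-0.037) with length offsets, Atg14 (0.22, 0.26 and 0.22 on TPM, 0.21 with length offsets), Gabarapl1 (-0.14 to 0.026 with 1 sample left out) and Ctsz (-0.0094 to 0.067 with 1 sample left out); none of these genes was called. The cause was not tested. The nutrient sensing median, -0.033, was 0.016 on log2(TPM + 1), 0.018 on log2(TPM + 0.1) and 0.0069 without NC 2.

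With the replicate block, 5006 genes were called and no call of the 39 genes changed. Deviations of same-numbered samples correlated at -0.023 across genes. That value cannot show whether same-numbered samples were handled together. With 2 samples a group no outlier could be tested, and genes with few counts, such as Mitf, are beyond this depth.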

Other observations

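The longest E-box searched, GTCACGTGAC, was in the start-site window of 2 of the 12 lysosomal membrane and sorting genes that have one, Cln3 and Igf2r, against 0.37% of all genes with a window, and of no gene in the other wider lists. Igf2r rose (log2 fold change 1.24) and Cln3 fell (-0.46). The shorter TCACGTGA was in 3 of these 12 genes, in 3 of 11 vacuolar ATPase genes (27.3%) and in 1 of 25 other lysosomal enzymes (4.0%), against 1.12% of all genes with a window. Of the ATPase genes with it, Atp6v1a rose (0.28, adjusted p = 0.0163), and Atp6v0d1 (0.24) and Atp6v0e (-0.15) had no call. Gla, the enzyme gene with it, rose (0.57, adjusted p = 0.00216). The shares of all genes with a window again include genes not tested here. These matches were looked up after the calls were known, and no relation to direction was tested.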
